A study of Mus musculus with 2 samples.

Results

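A set of 8 genes encodes surface proteins that have been reported on the leukemic stem cells (LSCs) of chronic myelogenous leukemia (CML): Il1rap, Il2ra, Dpp4, Cd33, Cd36, Cd44, Cd47 and Cd93. They were chosen by name, and each was found once among the 34745 genes of the deposited tables. RNA came from bone marrow (BM) LSKs, sorted by the lack of lineage antigens and the presence of Sca1 and c-Kit, of C57BL/6 mice carrying Scl/tTA and BCR/ABL (BA) transgenes. Under the Scl enhancer, tTA turns on BA in early hematopoietic cells when doxycycline is removed, so both groups carry the same transgenes. The week-0 group was still on doxycycline and the week-3 group had been without it for 3 weeks, and each group is 1 library made from 3 mice mixed together. In Scl/tTA-GFP mice, which the study used as a reference for the BA protein level, only part of the LSKs held GFP at week-3. The ages of the mice are not given in the sources used here, and BA reads were not analysed here. With 1 library per group the spread between mice is unknown, so no p-value is given and all differences below are between these 2 libraries.

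The proteins fall into a few families. Il1rap is the accessory chain that the receptors for IL-1 and IL-33 need in order to signal, and Il2ra (CD25) is the alpha chain that raises the affinity of the receptor for IL-2. Dpp4 (CD26) is a membrane peptidase that clips chemokines such as Cxcl12, the signal that holds stem cells in the marrow. Cd44 binds hyaluronan and osteopontin and serves in homing, and Cd93 is a C-type lectin-like protein of endothelial cells and early blood progenitors. Cd33 is a sialic acid-binding lectin of myeloid cells, Cd36 is a scavenger receptor that takes up fatty acids, and Cd47 is the signal that restrains engulfment by macrophages through Sirpa. In human CML these proteins have been used to tell leukemic from normal stem cells, or studied as targets on them.

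The libraries held 6356164 (week-0) and 3886695 (week-3) reads on genes, and the limit that a count of 0 allows, 3 reads, stands for 0.472 and 0.772 RPM (reads per library total, scaled as in CPM). Levels are given as FPKM, reads per kilobase of a gene's exon model scaled by the library's total, and each 95% interval holds counting error alone, because the cDNA was amplified and reads are not single molecules. The genes of the sort were present, with 1391 and 580 reads of Kit and 434 and 199 reads of Ly6a (Sca1) at week-0 and week-3. Of the lineage panel, Cd3e had 5 and 0 reads, Ly6g 5 and 5, and Itgam 30 and 30. Ptprc, which the panel detects only as the B220 form, is shared by blood cells and had 707 and 478 reads. Markers of other cell types moved between the libraries. Mast cell and basophil genes took 0.0530% of reads at week-0 (exact binomial 95% interval 0.0512 to 0.0548%) and 0.435% at week-3 (0.429 to 0.442%), with 10 of 12 genes past a 2-fold limit upward and Tpsb2 and Mcpt4 at 0 reads in the week-0 library. Their leading genes were Tpsb2 with 0 and 5442 reads, Cpa3 with 524 and 4840 and Cma1 with 4 and 3361. Prss34, with 1300 and 380 reads, was past the limit downward (log2 fold change -1.06), and Gata2 had 896 and 378 reads (-0.54). Neutrophil and monocyte genes went from 0.370% to 1.73%, with 11 of 13 tested genes higher, led by Mpo with 9443 and 18486 reads, Elane with 5454 and 18391 and Prtn3 with 3552 and 12505. Erythroid genes went from 0.142% to 0.0104%, plasma cell genes from 0.110% to 0.0245% and dendritic cell genes from 0.127% to 0.0619%. Of the 7000 and 953 reads of the plasma cell list, 1454 and 837 were of Xbp1 (log2 fold change -0.09). Jchain had 5120 and 96 reads and Mzb1 218 and 1. Of the 8103 and 2407 reads of the dendritic cell list, 6177 and 934 were of Flt3, which multipotent progenitors also express. Of its 5 tested genes, 3 were past the limit downward. Irf8, with 896 and 977 reads, and Bst2, with 944 and 473, were inside it at log2 fold changes of 0.83 and -0.29. Megakaryocyte, endothelial, macrophage and B cell lists differed by less than 2-fold in summed reads, and T and NK cell genes had 54 and 13 reads. In a mixed sample, fewer cells of a type and less RNA per cell cannot be told apart.

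**Figure D1:**
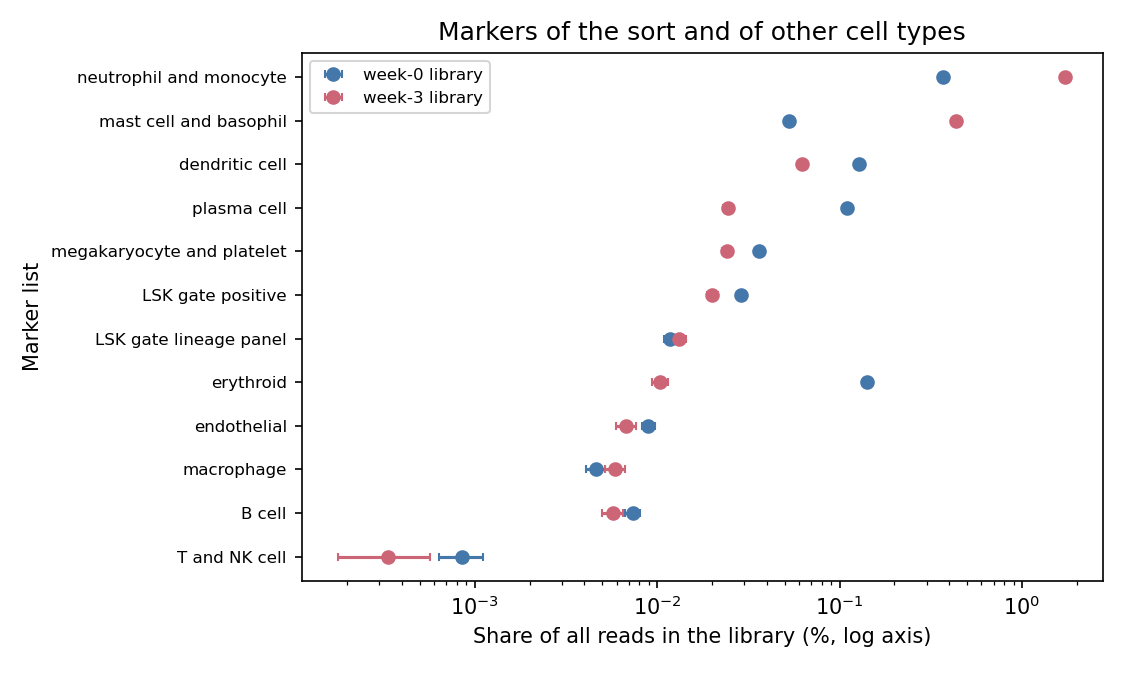
Share of all reads (%, log axis) of each marker list in the week-0 and the week-3 library, with exact binomial 95% intervals as bars. Mast cell and basophil genes rise from 0.0530% to 0.435%, and erythroid genes drop from 0.142% to 0.0104%.

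The 8 genes covered a wide range of levels. At week-0, Cd47 was highest with an FPKM of 114 (95% Poisson interval 110 to 118). Cd93 followed at 25.05 (23.6 to 26.6) and Cd44 at 21.4 (20.4 to 22.5). These were abundant messages, at percentiles 97.5, 89.7 and 88.2 of the genes with reads. Cd33, at 3.75 (3.30 to 4.23), and Dpp4, at 2.52 (2.08 to 3.03), lay in the middle of the expressed genes. Il1rap had 0.459 (0.334 to 0.617), Cd36 0.226 (0.117 to 0.395) and Il2ra 0.159 (0.0584 to 0.347). The last 3 stood low among expressed genes, and only they had intervals that overlapped those of their neighbours in the order. Cd47 made up 68.0% of the summed FPKM of the 8 genes.

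At week-3 the top of the order was the same and the bottom was not. Cd47 had an FPKM of 143 (138 to 148), Cd93 20.04 (18.4 to 21.8) and Cd44 11.1 (10.2 to 12.1). The gap between Cd93 and Cd44 was therefore wider than at week-0. Dpp4, at 2.55 (1.99 to 3.21), now stood above Cd33, at 1.43 (1.09 to 1.84). Il2ra, last at week-0, was 6th at 0.781 (0.463 to 1.23), with an interval overlapping that of Cd33. Il1rap had 0.256 (0.143 to 0.422), and Cd36 had no reads, which allows an FPKM of up to 0.0925 at 3 reads. The share of Cd47 in the summed FPKM was 79.8%. The exon models behind these values run from 5635 bases for Cd47 to 15070 bases for Il1rap, and a model longer than the transcripts in use lowers the FPKM of a gene.

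**Figure D2:**
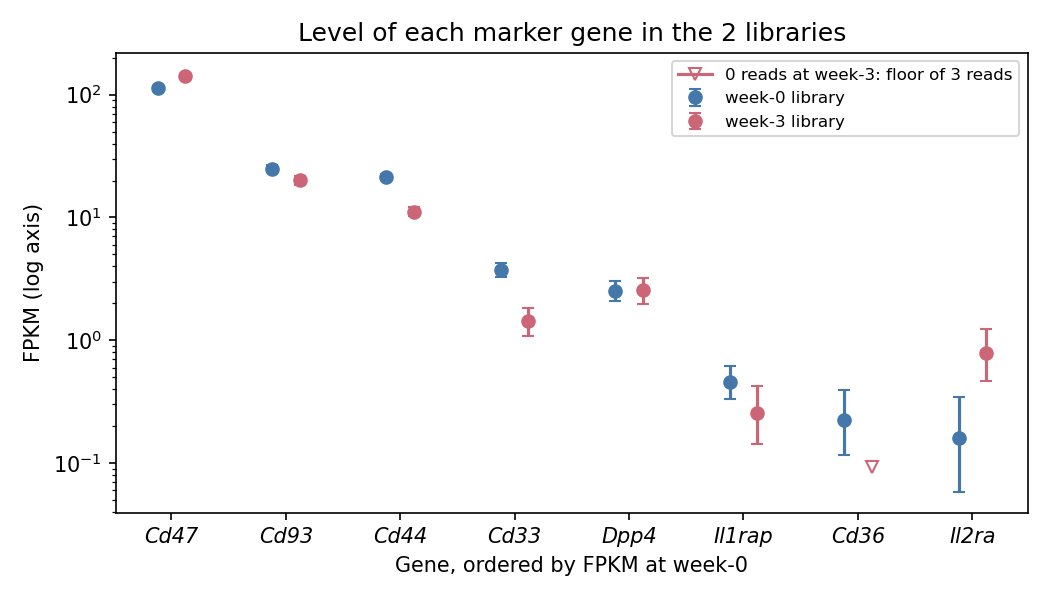
FPKM (log axis) of the 8 marker genes in the week-0 and week-3 libraries, with exact Poisson 95% intervals of the reads. Cd47 lies at 114 and 143, and Il2ra and Cd33 move toward each other from week-0 to week-3; the open triangle is the floor of 3 reads for Cd36, which had 0 reads at week-3.

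A gene was called past the limit when the ratio of its week-3 to its week-0 FPKM reached 2 or was no more than 0.5, among the 12192 genes with at least 20 reads over both libraries. Of the 8 genes, 7 reached 20 reads, and Cd36, with 12, did not. Il2ra was called higher and Cd33 was called lower, so that 1 of 7 lay past the limit in each direction. Over all genes tested, 10.6% were called higher and 15.6% lower, and the share of the marker genes, 14.3% each way, was close to this background. The median log2 fold change of the 7 genes was -0.32, against 0.07 for all genes tested. TMM scaling, which assumes that most genes do not change, shifts every log2 fold change by -0.11. It calls 8.51% of all genes higher and 17.5% lower, and it brings Cd44 past the limit as well. No member's 95% interval lay wholly beyond the 2-fold limit.

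**Figure D3:**
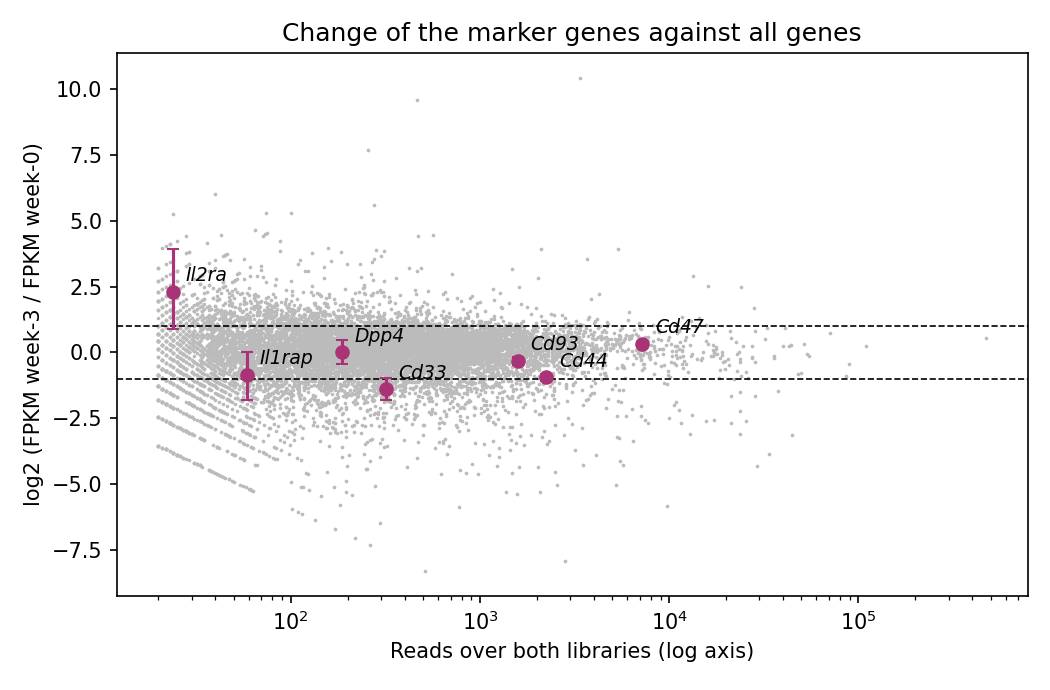
log2 of the FPKM ratio, week-3 over week-0, against reads over both libraries (log axis), for genes with at least 20 reads in all and reads in both libraries (grey) and for 7 marker genes with their 95% counting intervals (purple); dashed lines mark 2-fold. Il2ra lies above the upper line, Cd33 below the lower one, and Cd44 just inside it.

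Il2ra had 6 reads before and 18 after doxycycline withdrawal, for a log2 fold change of 2.29 (95% interval 0.90 to 3.92), or 4.91-fold higher. The lower end of the interval lies under the 2-fold limit, and the week-0 level rests on only 6 reads. The gene is protein-coding on the plus strand of chromosome 2 of GRCm38, from 11642807 to 11693193. The gene that overlaps it had 0 reads and 1 read. CD25 is also known from regulatory T cells. The T and NK cell list of 9 genes had 54 and 13 reads in sum, opposite in direction to Il2ra. Trac, the T cell receptor constant chain, had the most of these, with 27 and 5 reads (FPKM 4.08 and 1.23), and was called lower (-1.72, interval -3.46 to -0.33). The other 8 genes had at most 7 reads each in a library, among them Klrb1c with 7 and 4, Cd4 with 4 and 2, Cd3e with 5 and 0 and Foxp3, which defines regulatory T cells, with 2 and 0. The part of T cells in the Il2ra value was not tested. Mast cell and basophil markers were 8.22-fold higher at week-3 as a list, with 10 of 12 genes called higher and 1 lower. Their part in the Il2ra value was not tested.

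The other chains of the IL-2 receptor went the opposite way. Il2rb, the signalling beta chain, had 68 reads before and 3 after withdrawal, a log2 fold change of -3.79 (-6.11 to -2.18). Il2rg, the gamma chain shared by several cytokine receptors, had 824 and 228 reads, with a log2 change of -1.14 (-1.36 to -0.93). Neither interval overlaps that of Il2ra. Il15ra, the alpha chain of the related IL-15 receptor, was higher, with 54 and 82 reads and 1.31 (0.80 to 1.84). Both alpha chains were thus higher at week-3 and both shared signalling chains lower. Il2 itself had 1 and 3 reads and gets no fold change, and Il15 went from an FPKM of 19.3 to 13.1.

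Downstream of these chains, Jak3, the kinase bound to the gamma chain, had a log2 fold change of -0.80 (-0.96 to -0.65), inside the limit. Stat5b, a factor that the kinase activates, was called lower with 857 and 218 reads and -1.27 (-1.49 to -1.05), and its near relative Stat5a had -0.80 (-1.01 to -0.59). Feedback inhibitors induced by STAT5 did not share one value. Socs1 was called lower with 374 and 79 reads (-1.53, interval -1.90 to -1.18), as was Cish with 110 and 28 reads (-1.26, interval -1.92 to -0.65). Socs3 had 1103 and 553 reads and -0.29 (-0.44 to -0.14). Of the 12 genes of this list, 11 were tested, 1 was called higher (9.09%) and 5 lower (45.5%). Over all genes tested, the shares were 10.6% and 15.6%. The median log2 fold change of the list was -0.80, against 0.07 over all genes.

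The proximal promoters are shown for the member called higher and the member called lower, as the 120 bases upstream of the RefSeq start on GRCm38.p6. That of Il2ra lies at chr2:11642672-11642791 on the plus strand and that of Cd33 at chr7:43533172-43533291 on the minus strand, inside the longer Cd33 gene of the deposited table.
Il2ra: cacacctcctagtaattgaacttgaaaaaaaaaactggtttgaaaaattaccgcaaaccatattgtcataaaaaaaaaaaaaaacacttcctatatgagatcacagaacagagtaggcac
Cd33: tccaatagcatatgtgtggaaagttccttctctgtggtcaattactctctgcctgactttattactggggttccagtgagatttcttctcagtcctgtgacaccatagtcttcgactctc
Both strands of windows of 300 bases (250 upstream and 50 downstream of the start) were searched for TTCNNNGAA, the letters bound by STAT factors, TGANTCA, those of AP-1, and GAGGAAGT, an ETS-family motif. None of the 3 was found in the windows of the 7 members that the table holds, which are all but Cd93. Over all 32851 windows, 8.30% held the first, 7.81% the second and 3.20% the third.

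Of 82 partner genes in the table, 11 held the STAT letters, 9 the AP-1 letters and 4 the ETS letters. Matches in capitals, with 10 bases on each side, are shown for 3 receptor genes and an inhibitor from the IL-1 and IL-2 receptor partner lists. They are at chr1:40085972-40086000 (Il1r2, plus strand), chr1:40465777-40465805 (Il18r1, plus), chr11:117969502-117969530 (Socs3, minus) and chr2:11705672-11705698 (Il15ra, plus) of GRCm38.p6.
Il1r2: cgggtgctttTTCAAGGAActtccgacta
Il18r1: tcggggttagTTCTGGGAActgtggagct
Socs3: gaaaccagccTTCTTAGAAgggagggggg
Il15ra: gtggggatgcTGAGTCAcagatctgtc
The log2 fold changes of the first 3 genes were -5.30, 0.17 and -0.29. These are 3 of the 11 partner genes with the STAT letters, and a link between letters and change was not tested.

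Il1rap (plus strand of chromosome 16, from 26581704 to 26730117) had 44 reads before and 15 after doxycycline withdrawal, for a log2 fold change of -0.84 (95% interval -1.79 to 0.03). The interval includes 0, and a difference was not detectable at this depth. The receptors that use Il1rap did differ. Il1rl1, the IL-33 receptor known from mast cells, had 14 reads (FPKM 0.199) before and 116 (FPKM 2.70) after withdrawal, a log2 change of 3.76 (2.96 to 4.68). Il1r1, the signalling IL-1 receptor, had 350 and 162 reads and -0.40 (-0.68 to -0.13). Il1r2, the decoy receptor that binds IL-1 without signalling, had 1349 reads (FPKM 90.5) before and 21 (FPKM 2.31) after withdrawal (-5.30, interval -5.99 to -4.68). At week-0 the decoy was thus the most abundant receptor of the family, and at week-3 Il1r1 stood above it at 4.25. The part of mast cell markers in the Il1rl1 value was not tested.

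These receptors lie side by side on chromosome 1, 6 genes within 478 kb, with Il1r2 first, Il1r1 at 151 kb and Il1rl1 at 355 kb from its start. Il1rl2 (log2 fold change -0.07, interval -0.85 to 0.67) and Il18r1 (0.17, interval -0.68 to 0.997), which flank Il1rl1, had intervals including 0. Il18rap, the accessory chain of the IL-18 receptor, had -0.38 (-0.75 to -0.03). Only Il1r2 and Il1rl1 of the 6 were past the limit, in opposite directions. Of the adaptors, Irak4, the first kinase of the pathway, was called higher with 160 and 228 reads (1.22, interval 0.92 to 1.52). Irak2, an inducible relative, was called lower with 146 and 25 reads (-1.84, interval -2.51 to -1.22). Myd88, which joins the receptors to these kinases, had 0.68 (0.47 to 0.88), and the inhibitory receptor Sigirr -0.25 (-0.47 to -0.05). Il1b was the ligand with the most reads, 144 and 24 (-1.88, interval -2.56 to -1.25). Over the list of 18 genes, 15 were tested, 2 were called higher (13.3%) and 3 lower (20%), with a median of -0.16. The shares over all genes tested were 10.6% and 15.6%.

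Cd33 (minus strand of chromosome 7, from 43524216 to 43544428) had 257 reads before and 60 after doxycycline withdrawal, for a log2 fold change of -1.39 (95% interval -1.82 to -0.98), or 2.62-fold lower. Within 309 kb of the same chromosome lie 3 relatives from the same lectin family. Siglece had 16 and 68 reads, an FPKM of 1.18 and 8.17, and a log2 fold change of 2.80 (1.996 to 3.68). Siglecf, known from eosinophils, had 21 and 41 reads and 1.67 (0.88 to 2.51), and Siglecg had 117 and 88 reads and 0.30 (-0.12 to 0.71). Neighbouring Siglec genes thus differed in direction, and the interval of Cd33 overlaps none of the others. At week-0 Cd33 had the highest FPKM of the 4, and at week-3 Siglece did. Neutrophil and monocyte markers, which moved upward with Siglece and against Cd33, were 4.69-fold higher at week-3, and their part was not tested.

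**Figure D4:**
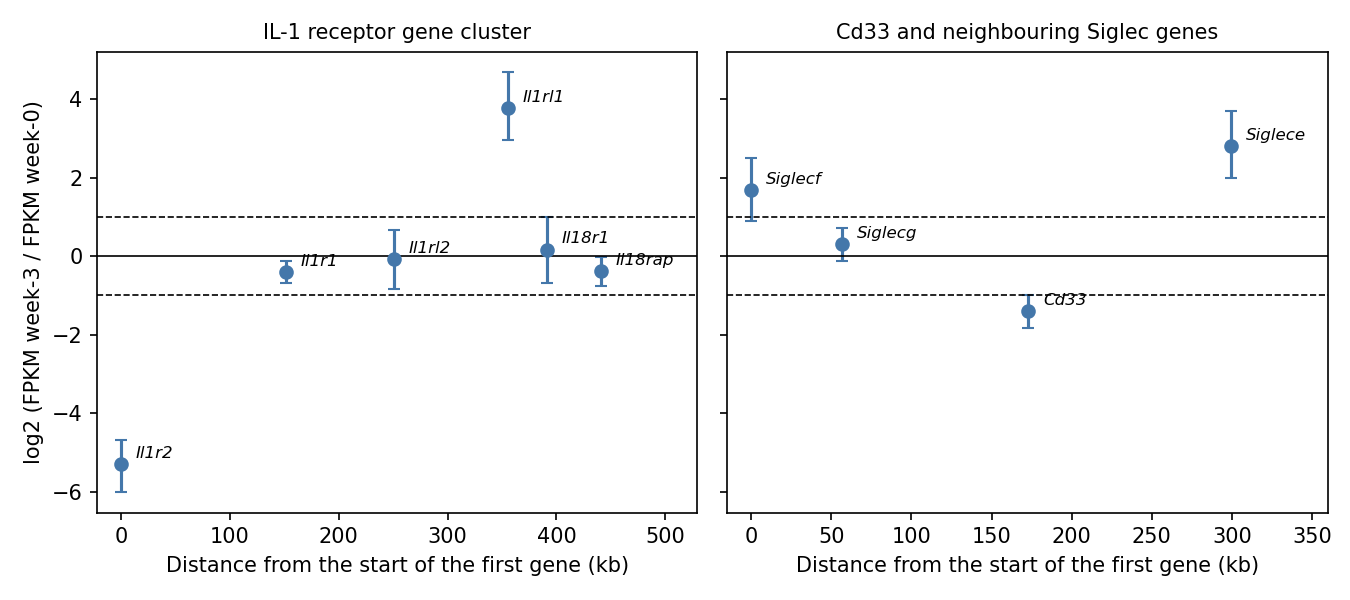
log2 of the FPKM ratio, week-3 over week-0, with 95% counting intervals, against the distance (kb) from the start of the first gene for the IL-1 receptor gene cluster (left) and for Cd33 and neighbouring Siglec genes (right); dashed lines mark 2-fold. Il1r2 at -5.30 and Il1rl1 at 3.76 are the extremes on the left, and Cd33 at -1.39 and Siglece at 2.80 on the right.

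The phosphatases that the inhibitory Siglecs recruit were little different. Ptpn6 (SHP-1) had 1034 and 785 reads, with a log2 change of 0.31 (0.18 to 0.45), and Ptpn11 (SHP-2) 0.16 (-0.08 to 0.40). Tyrobp, the adaptor of activating Siglecs, was abundant at an FPKM of 171 and 236 (0.46, interval 0.29 to 0.64). Siglech, a marker of plasmacytoid dendritic cells, was called lower with 21 and 3 reads (-2.10, interval -4.49 to -0.35). Of the 11 genes in this list 7 were tested, 2 were called higher (28.6%) and 1 lower (14.3%), against 10.6% and 15.6% over all genes.

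Cd44 (minus strand of chromosome 2, from 102811141 to 102901665) had 1704 reads before withdrawal against 540 after it. Its log2 fold change was -0.95 (95% interval -1.09 to -0.81), or 1.93-fold lower, just inside the limit. With TMM scaling it was -1.06 and with median-of-ratios scaling -1.04, both past the limit. Osteopontin, the ligand encoded by Spp1, was called lower with 271 and 71 reads (-1.22, interval -1.62 to -0.84). Ezr, one of 3 related linkers that tie Cd44 to the actin skeleton, was called lower with 1172 and 304 reads (-1.24, interval -1.42 to -1.05). The other linkers, Msn at -0.53 (-0.67 to -0.38) and Rdx at 0.46 (0.27 to 0.64), were inside the limit and differed in sign. In FPKM, Ezr went from 52.5 to 22.3, Msn from 28.3 to 19.7 and Rdx from 16.8 to 23.1, and the week-3 intervals of Ezr (19.8 to 24.9) and Rdx (20.997 to 25.4) overlapped.

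Among the enzymes of hyaluronan turnover, the synthases Has1, Has2 and Has3 had at most 2 reads in any library. Hyal2, which cuts hyaluronan at the cell surface, had 29 and 101 reads (log2 fold change 2.51, interval 1.90 to 3.16), while Hyal3 had 39 and 5 (-2.25, interval -3.95 to -0.91). Mmp9, a protease that binds Cd44 at the surface and is abundant in neutrophils, had 9 and 35 reads (2.67, interval 1.58 to 3.91). The homing ligands Selplg and Selp differed from each other. Selplg had 2442 and 1122 reads and -0.41 (-0.52 to -0.31), and Selp, a selectin of platelets and endothelium, 74 and 107 reads and 1.24 (0.80 to 1.69). Of 17 genes 11 were tested, with 3 called higher, 3 lower (27.3% each) and a median of 0.37. Over all genes tested, 10.6% were higher and 15.6% lower.

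Dpp4 (minus strand of chromosome 2, from 62330073 to 62412231) had 115 reads before and 71 after withdrawal, and the same level in both libraries within counting error. Its log2 fold change was 0.01 (95% interval -0.43 to 0.45), which leaves room for a difference of under 1.5-fold either way. Fap, its closest relative and neighbour on the chromosome, had 1 read and 0 reads. Among the related peptidases, Dpp9 had 367 and 135 reads (-0.73, interval -1.03 to -0.44) and Prep 271 and 151 (-0.13, interval -0.43 to 0.16). Adenosine deaminase (Ada), which human CD26 binds, had 0.21 (-0.09 to 0.50). The chemokine that Dpp4 clips, Cxcl12, is made by stromal cells and had 27 reads and 2 reads (-3.05, interval -6.16 to -1.05). Its receptor Cxcr4 had 287 and 162 reads and -0.12 (-0.40 to 0.17). In this list of 10 genes 7 were tested and Cxcl12 alone was called (14.3% lower, against 15.6% of all genes).

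Cd93 (minus strand of chromosome 2, from 148436640 to 148443563) had 1063 reads before and 520 after doxycycline withdrawal, for a log2 fold change of -0.32 (95% interval -0.48 to -0.17), or 1.25-fold lower. With 1 annotated transcript it was the simplest gene of the 8, where Cd47 had 10. Its neighbour and relative Thbd, thrombomodulin, begins 32.2 kb away and had 142 and 54 reads (-0.69, interval -1.17 to -0.22). The endothelial list of 8 genes held 0.00894% (week-0) and 0.00677% (week-3) of reads. Its genes with the most reads were Pecam1 with 260 and 189, Vwf with 116 and 36 and Emcn with 108 and 19, of which stem cells and platelets also express some. Cdh5 had 3 and 0 reads, and Clec14a, a relative of Cd93, had none in either library. The part of endothelial cells in the Cd93 value was not tested. Gipc1, an adaptor that binds the tail of Cd93, had -0.04 (-0.24 to 0.16). Ifngr1 had 0.56 (0.43 to 0.68), and Igfbp7, a ligand of Cd93, had 8 and 4 reads. Of the 7 genes in this list 3 were tested and none was called at 2-fold, against 10.6% higher and 15.6% lower over all genes.

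Cd47 (plus strand of chromosome 16, from 49855618 to 49915010) was by far the best measured of the 8, with 4082 reads before and 3123 after withdrawal. Its log2 fold change was 0.32 (95% interval 0.26 to 0.39), or 1.25-fold higher, which stayed above 0 with TMM scaling at 0.21 and with median-of-ratios scaling at 0.23. Calr, the signal for engulfment that Cd47 opposes, had 1687 and 2350 reads and was called higher (1.19, interval 1.10 to 1.28). The FPKM of Calr was 62.5 at week-0, below that of Cd47, and 142 at week-3, level with it. Lrp1, the receptor of calreticulin on phagocytes, was called lower with 474 and 129 reads (-1.17, interval -1.46 to -0.88). Sirpa, the receptor of Cd47, had 177 and 193 reads and 0.83 (0.53 to 1.14), inside the limit. Qpctl, the enzyme that modifies Cd47 for Sirpa binding, had 236 and 82 reads and -0.82 (-1.20 to -0.45). Cd24a, a further signal that restrains engulfment, was abundant at an FPKM of 263 and 201 (-0.38, interval -0.48 to -0.29). Of 10 genes 9 were tested, 1 was called higher (11.1%) and 3 lower (33.3%), against 10.6% and 15.6% over all genes.

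Cd36 (minus strand of chromosome 5, from 17781690 to 17888801) had 12 reads before withdrawal and none after it. Against 3 reads at week-3 it was at least 2.45-fold lower, a limit that leaves out the counting error of the 12 reads. With that error included, the exact 95% interval of the log2 fold change reached up to -0.76, so a smaller difference is possible. Cells known for Cd36 include macrophages, platelets, erythroid cells and endothelium. As lists, erythroid markers were 13.6-fold lower at week-3, with 7 of 8 genes called lower, and megakaryocyte and platelet markers 1.51-fold lower. Endothelial markers were 1.32-fold lower and macrophage markers 1.28-fold higher. The part of these cells in the Cd36 value was not tested. The globin genes led the erythroid list, Hbb-bs with 3032 and 143 reads, Hbb-bt with 2193 and 131 and Hba-a1 with 2036 and 32, though near-identical copies can share reads. Thbs1, a ligand of both Cd36 and Cd47, had 59 reads and 1 read (-5.17, interval -10.5 to -2.64). Scarb1, a scavenger receptor of the same family that takes up lipid from HDL, was called higher with 312 and 449 reads (1.23, interval 1.02 to 1.45). The kinases tied to Cd36 were both lower in value, Fyn at -1.80 (-2.32 to -1.31), past the limit, and Lyn at -0.64 (-0.88 to -0.41), inside it. For fatty acid handling, Fabp5 had 1958 and 719 reads (-0.74, interval -0.86 to -0.61) and Cpt1a, which admits fatty acids to mitochondria, -0.29 (-0.59 to 0.02). Of 13 genes 10 were tested, 1 was called higher (10%) and 2 lower (20%), against 10.6% and 15.6% over all genes.

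**Figure D5:**
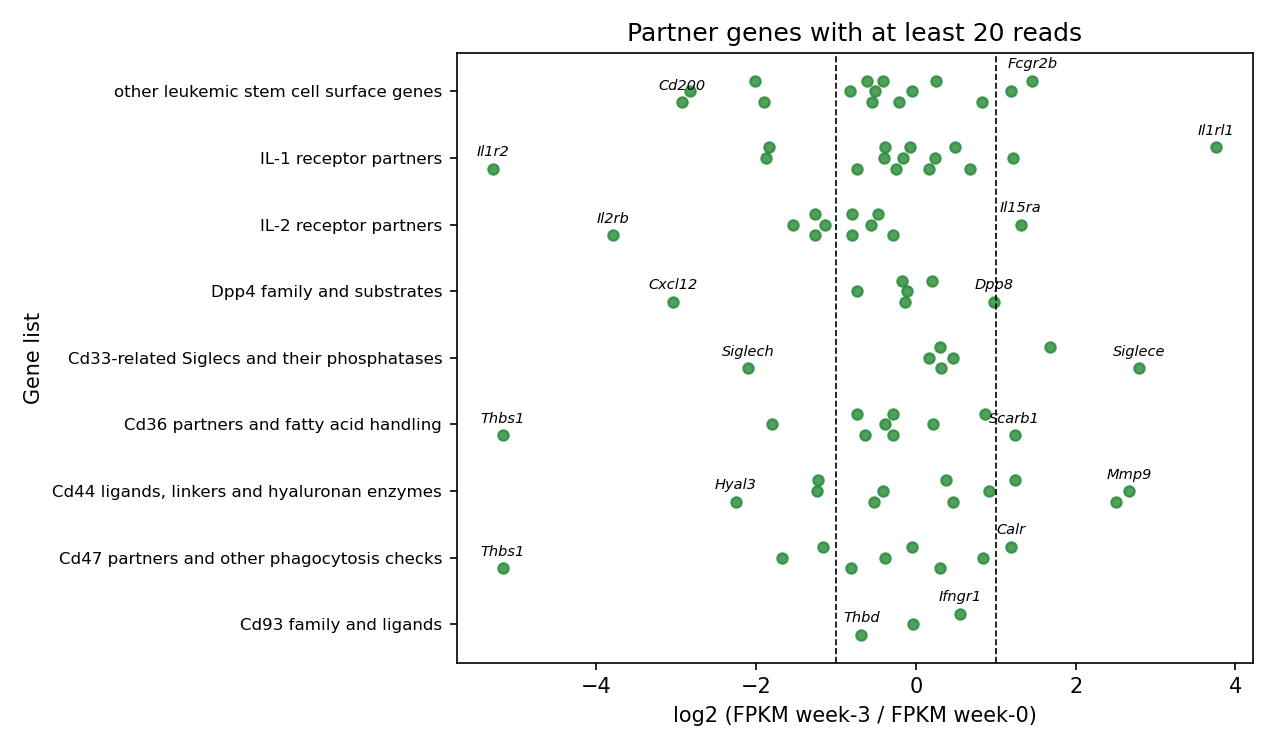
log2 of the FPKM ratio, week-3 over week-0, for every partner gene with at least 20 reads, by list (rows, points offset for clarity), with the lowest and highest gene of each list named; dashed lines mark 2-fold. The IL-1 receptor list spans -5.30 to 3.76, and in the IL-2 receptor list only Il15ra lies to the right of the upper line.

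Other surface genes studied on leukemic stem cells gave a mixed picture as well. Of 18 genes found, 15 were tested, 2 were called higher (13.3%) and 4 lower (26.7%), with a median log2 fold change of -0.51. Flt3, a growth factor receptor of multipotent progenitors, had 6177 and 934 reads (-2.02, interval -2.12 to -1.92). Clec12a, a myeloid lectin used as a marker of leukemic stem cells in acute myeloid leukemia, was called higher with 552 and 770 reads (1.19, interval 1.03 to 1.35). Adgrg1 and Cd34, both abundant in stem cells, were inside the limit at -0.82 (-0.90 to -0.75) and -0.61 (-0.70 to -0.52), as was Cd52 at -0.41 (-0.64 to -0.19). Over all partner lists together, 86 of 114 genes were tested, of which 14.0% were called higher and 24.4% lower, with a median of -0.29. Over all genes tested, the shares were 10.6% and 15.6%, with a median of 0.07.

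The deposited tables also allow a view over surface genes in general. Over all genes tested, 10.6% were called higher and 15.6% lower. Of 93 genes named as CD antigens, 54 were tested, and 13.0% were called higher and 24.1% lower. Genes annotated to the cell surface, 6 of the 8 members among them, were called higher in 13.4% and lower in 30.1% of 432 tested. Those on the external side of the plasma membrane, with 4 members, were called in 18.9% and 32.5% of 169. For each member, the CD antigen gene with the most similar pair of levels was sought among 50 others with at least 20 reads. The measure was the smallest distance in log2(FPKM + 0.1) over the 2 libraries. Cd44 was closest to Cd82 (distance 0.24, FPKM 18.6 and 12.1), Cd93 to Cd14 (0.35, FPKM 27.8 and 16.04) and Dpp4 to Cd1d2 (0.39, FPKM 2.14 and 2.03). Il1rap was nearest to Cd6 (0.67), Il2ra to Cd300lf (0.76), Cd47 to Cd48 (0.80) and Cd33 to Cd86 (0.82). Cd36 was nearest to Cd200, at 1.36. With 12 reads it is itself below the minimum of 20, so genes with as few reads were not among the candidates. With only 2 libraries a small distance says no more than that the levels were alike in both.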

How the data were processed

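RNA of BM LSKs was sequenced as paired ends after SMARTer cDNA preparation, 1 library for week-0 and 1 for week-3. The authors trimmed the reads, mapped them to GRCm38 with TopHat2 2.0.9 and deposited read counts per gene, without normalization. The authors also deposited FPKM, scaled by exon model length and by the reads counted on genes. The counting tool and annotation release are not given in the sources used here. The deposited locus was the same as in GENCODE M21 for all members except Cd47.

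The members and gene lists were chosen with earlier results of these data known. Fold changes are FPKM ratios without a pseudocount. Intervals at 95% are exact: Clopper-Pearson for shares and ratios, and Poisson for levels. Genes were called at 2-fold among those with at least 20 reads over both libraries. The study's edgeR test needs a dispersion, which 1 library per group cannot give, so edgeR 4.0.16 with an assumed one served only as an alternative. DESeq2 1.42.0 gave size factors for median-of-ratios scaling. The rest ran in R 4.3.3 and in Python 3.11.15 with scipy 1.17.1, pandas 2.3.3 and numpy 2.4.6, and figures were drawn with matplotlib 3.10.9. Intervals and calls were tested on simulated data that held counting error alone. That test cannot show how they hold with amplified cDNA or between mice.

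From each partner list the 4 genes with the highest mean FPKM and the 3 called genes with the most reads are named. Of the cell type lists, the 3 genes with the most reads are named for these: mast cell and basophil, neutrophil and monocyte, erythroid, T and NK cell, endothelial, dendritic cell and plasma cell. Other genes were named after their values were seen: Il1r1, Il1rl1, Il1rl2, Il18r1, Il18rap, Il1b, Il2, Il2rb, Il15, Il15ra, Cish, Stat5a, Siglecg, Hyal2, Hyal3, Mmp9, the Has genes, Fap, Foxp3, Cd3e, Clec14a, Cdh5, Mcpt4, Prss34, Gata2 and those of the closing section. One gene that the rule names is not reported here. CD antigen genes are those with a symbol of Cd and a number, without Cd2ap, Cd2bp2 and Cd3eap. Promoter sequences are those of RefSeq on GRCm38.p6.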

Additional observations from a re-analysis of the deposited data

How the results depend on the processing

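No paired analysis was possible because each group is 1 library, and for the same reason no replicate could be left out. Of the 7 members with reads in both libraries, 31 of 35 log2 fold changes under 5 other scalings or pseudocounts stayed within the counting interval of the main value and none of the called ones changed sign. Cd47 moved to 0.21 with TMM and 0.23 with median-of-ratios scaling, and a pseudocount of 1 moved Il2ra to 0.62 and Cd33 to -0.97.

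The number of members called lower was 2 with TMM, with median-of-ratios scaling (Cd33 and Cd44) and with no minimum and a pseudocount of 0.1 (Cd33 and Cd36), and 3 with a limit of 1.5-fold. It was 0 with a pseudocount of 1, with the counting interval past 2-fold, and with edgeR's exact test at a biological coefficient of variation of 0.4. The number called higher was also 0 in these 3 cases and when 1 of the libraries had to reach an FPKM of 1, which Il2ra does not reach. At a coefficient of 0.1 the calls were Il2ra and Cd33. Of the partner genes, 12 were called higher and 21 lower in the main analysis. With the interval past 2-fold 13 were lower, and at a coefficient of 0.4 there were 1 higher and 3 lower.

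Over all genes, 1293 were called higher and 1903 lower. The numbers were 2191 and 2495 with at least 1 read in both libraries, 2997 and 3734 with no minimum and a pseudocount of 0.1, and 612 and 989 with a pseudocount of 1. A limit of 1.5-fold gave 2894 and 2996, the interval past 2-fold 450 and 926, and a coefficient of 0.4 gave 50 and 199. As TPM the order of the members cannot differ, because TPM scales every FPKM of a library by the same factor, so it is no check. Depth limits Il2ra, Il1rap and Cd36 most, with 24, 59 and 12 reads in all.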

Other observations

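Among the CD antigen genes called at 2-fold, the 15 with the most reads were listed after their values were seen. Receptors of the Cd200 receptor family were higher at week-3, although the ligand was not. Cd200r3, an activating receptor of basophils and mast cells, had 15 reads before and 94 after withdrawal, a log2 change of 3.36 (95% interval 2.56 to 4.25). Cd200r4 had 5 and 70 reads (4.52, interval 3.23 to 6.18) and Cd200r1, the inhibitory receptor, 9 and 35 reads (2.67, interval 1.58 to 3.91). All 3 lie within one stretch of chromosome 16. The ligand Cd200 had 25 and 2 reads (-2.93, interval -6.06 to -0.93). Cd177, a neutrophil antigen, had 18 and 65 reads (2.56, interval 1.79 to 3.40), and Cd55, which protects cells from complement, had 21 and 42 (1.71, interval 0.92 to 2.54).

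In the other direction, Cd83, an activation marker of B cells and dendritic cells, had 514 reads and 1 read (-8.30, interval -13.6 to -5.81). Cd28, a costimulatory receptor of T cells, had 167 and 3 reads (-5.09, interval -7.38 to -3.52), and its ligand Cd86 had 169 and 17 (-2.60, interval -3.42 to -1.88). Cd72, a receptor of B cells, had 514 and 120 (-1.39, interval -1.69 to -1.10).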
